A study of Mus musculus with 2 samples.

Results

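Setd2 and 6 further genes that have been described as methyltransferases of lysine 36 of histone H3 (H3K36), namely Nsd1, Ash1l, Setmar, Setd3, Smyd2 and Setd5, were followed in RNA sequencing of mouse telencephalic tissue at embryonic day 12. They were taken from the deposited count table by the Ensembl identifiers of the listed symbols. All 7 were found among 19202 genes, and all 7 passed the floor of 1 CPM (counts per 1000000 counts of a library) in the higher library that 14586 genes passed. The series compared a conditional knockout of the histone variant H2A.Z (H2AZcKO, called H2AZ cKO here) with mice carrying only the floxed allele (H2AZfl/fl, the floxed control), both of the C57BL/6 background. The labels describe the tissue as telencephalic while the extraction protocol names the cerebral cortex, and they name no Cre driver, so the cells that lost the allele are not known here. The table holds 1 column of counts per genotype, called a library here, and its WT column was taken as the floxed control. The series text speaks of triplicates, and whether a column pools them is not stated. No difference below therefore has a replicate check, and no test of the genotype was possible.

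Methylation of H3K36 marks transcribed chromatin. Setd2 binds the phosphorylated tail of elongating RNA polymerase II and is the main enzyme that adds the third methyl group, which marks gene bodies. Nsd1 and its relatives Nsd2 and Nsd3, together with Ash1l, add up to a pair of methyl groups over broader regions, where the mark recruits proteins with a PWWP domain such as the DNA methyltransferase Dnmt3a. Setmar has been linked to H3K36 dimethylation at DNA breaks, and the mouse gene lacks the transposase part of the primate fusion gene. Setd3, Smyd2 and Setd5 were also described as H3K36 enzymes, but Setd3 is now known chiefly as the histidine methyltransferase of actin, Smyd2 methylates p53 and other non-histone proteins, and the activity of Setd5 on histones is disputed. Loss of one copy of SETD2, NSD1, ASH1L or SETD5 causes neurodevelopmental syndromes in humans.

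Sequences upstream of the starts of Setd2, Setmar and Smyd2 are shown because Setd2 is the gene of the series title and the other two were the members with a ratio above 1, although neither differed beyond counting error. Each is the 250 bases before the RefSeq start (GRCm38.p6), 5′ to 3′ on the gene's strand. Capitals mark matches, on either strand, to the GC box GGGCGG, to the CCAAT box, to the TATA box searched as TATAAA, and to an ETS core searched as CCGGAAG. The windows lie at chr9:110532347-110532596 on the plus strand, chr6:108064795-108065044 on the plus strand and chr1:189922292-189922541 on the minus strand.
Setd2: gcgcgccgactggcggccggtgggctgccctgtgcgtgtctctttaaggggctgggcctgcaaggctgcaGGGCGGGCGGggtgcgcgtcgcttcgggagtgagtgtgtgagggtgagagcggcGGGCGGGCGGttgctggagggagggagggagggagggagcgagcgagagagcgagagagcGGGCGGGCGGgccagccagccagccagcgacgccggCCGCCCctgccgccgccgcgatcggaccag
Setmar: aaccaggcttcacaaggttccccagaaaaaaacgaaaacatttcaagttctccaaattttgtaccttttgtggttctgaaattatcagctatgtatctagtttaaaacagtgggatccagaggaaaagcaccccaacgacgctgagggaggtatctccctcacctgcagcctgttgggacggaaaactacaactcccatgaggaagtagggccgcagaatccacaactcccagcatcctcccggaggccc
Smyd2: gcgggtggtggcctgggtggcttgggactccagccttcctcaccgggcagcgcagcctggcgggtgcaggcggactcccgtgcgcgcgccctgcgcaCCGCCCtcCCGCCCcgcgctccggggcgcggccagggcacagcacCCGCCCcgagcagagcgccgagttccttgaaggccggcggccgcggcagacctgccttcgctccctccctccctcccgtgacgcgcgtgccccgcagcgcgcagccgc
Setd2 had 7 matches to GGGCGG (some overlapping) and 31 CG dinucleotides in a window of 76.0% G and C. Smyd2 had 3 matches to GGGCGG, 34 CG dinucleotides and 78.8% G and C. Setmar had no match to GGGCGG, 6 CG dinucleotides and 48.4% G and C, and none of the other motifs. Of 32851 RefSeq windows of the same length, 32.7% hold the GC box, 33.8% the CCAAT box, 12.4% the TATA box and 6.91% the ETS core, and the median number of CG dinucleotides is 6. Matches of letters describe the sequence and show no binding. Sequences were matched for 5 members. Setd3, whose windows are not printed, had 7 matches to GGGCGG and 3 to the CCAAT box in each of 2 overlapping windows. Nsd1 and Ash1l had no entry, and the entry of Setd5 starts 27.6 kb inside its deposited gene and is not shown. The printed Smyd2 window also reaches into its deposited gene, from 189922292 to 189922363, as do parts of both Setd3 windows.

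Library totals were 8839840 (H2AZ cKO) and 8891198 (floxed control) counts. The targeted gene, H2afz, had 1664 counts in the knockout library against 2605, a ratio of 0.661 (0.621 to 0.703). Every ratio divides the H2AZ cKO by the control level after TMM scaling, and each is followed in brackets by its exact 95% binomial (Clopper-Pearson) interval, which covers counting error only. The H2A.Z paralog gene H2afv was higher, at 316 against 252 CPM (interval of the ratio 1.19 to 1.33). Defining genes of the telencephalon were present in both libraries, with 7 of 7 above 0 on the log2 scale and summed levels of 2177 CPM (H2AZ cKO) and 1946 CPM (control). Markers of other tissue moved with the genotype as well. The list of 10 diencephalic and hypothalamic markers had 10 below 0, with summed levels of 94.3 and 186 CPM and Nkx2-4 at 0 counts in the H2AZ cKO. That list, like the others, was chosen with earlier results of these data known, so its count is no independent result. Erythroid genes were above 0 in 7 of 7 tested, at 649.9 and 340.5 CPM, and genes of macrophages in 7 of 8, at 40.6 and 29.2 CPM. Of 7 genes each, 6 of apical progenitors and 5 of neurons were above 0, against 1 of 6 endothelial and 1 of 5 mesenchymal genes, and no other marker was at 0. Xist had 732 CPM in one genotype (H2AZ cKO) and 22.2 CPM in the other, so the sex of the embryos and the genotype cannot be told apart. In bulk tissue, fewer cells of a type and less RNA per cell also cannot be told apart, and the part of these marker differences in the results below was not tested.

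Setd2 was slightly lower in the H2AZ cKO. It had 1160 counts, or 133 CPM (exact Poisson interval 126 to 141), against 1342 counts, or 149 CPM (141 to 157), in the floxed control. The control library was thus the higher one, while the Poisson intervals of both levels just touched. The ratio was 0.894 (0.826 to 0.968), a difference of 10.6% below the control before any replicate error. On log2(CPM + 1), the scale used for all log2 ratios here, the log2 ratio was -0.16, and 22.9% of tested genes had a ratio as low or lower. Setd2 (ENSMUSG00000044791) lies on the plus strand of chromosome 9 at 110532597 to 110618633, in deposited positions that match GRCm38, and no other gene of the table overlaps it there.

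Nsd1 and Ash1l were lower too. Nsd1, the gene of Sotos syndrome, was the most abundant member by count, with 1812 against 2152 counts (208 and 239 CPM). Its ratio was 0.871 (0.818 to 0.928), and the Poisson intervals of its levels lay apart. Ash1l, a Trithorax group gene, stood lowest of the 7 relative to the control. It had 640 against 838 counts (73.4 and 92.9 CPM), with Poisson intervals that lay apart, and a ratio of 0.790 (0.712 to 0.877). Its log2 ratio of -0.34 was matched or undercut by 9.08% of tested genes. Nsd1 (ENSMUSG00000021488) spans 55209782 to 55318325 on the plus strand of chromosome 13, and Ash1l (ENSMUSG00000028053) 88950622 to 89079375 on the plus strand of chromosome 3. Ash1l shares 352 exonic bases with Dap3 on the opposite strand (800 and 734 counts), and no strand setting of the counting is known here, so reads in that stretch cannot be assigned.

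Among the genes whose H3K36 activity is less settled, Setd5 and Setd3 were below the control and Smyd2 and Setmar above it. Setd5 had 1646 against 1921 counts (189 and 213 CPM), with Poisson intervals apart and a ratio of 0.886 (0.829 to 0.947). Setd3 had 709 against 787 counts (81.3 and 87.3 CPM), and its ratio of 0.932 (0.841 to 1.03) had an interval that held 1. Smyd2 was higher in the H2AZ cKO, at 196 against 165 counts (22.5 and 18.3 CPM), with overlapping Poisson intervals and a ratio of 1.23 (0.994 to 1.52). Setmar, the least abundant member, had 66 against 52 counts (7.57 and 5.77 CPM), also with overlapping intervals, and a ratio of 1.31 (0.899 to 1.93). At these depths a difference was not detectable for Setd3, Smyd2 or Setmar beyond counting error. Setd5 (ENSMUSG00000034269) lies at 113077365 to 113153435 and Setmar (ENSMUSG00000034639) at 108065045 to 108077122, both on the plus strand of chromosome 6. Setd3 (ENSMUSG00000056770) lies on the minus strand of chromosome 12 at 108106431 to 108179314 and Smyd2 (ENSMUSG00000026603) on the minus strand of chromosome 1 at 189880492 to 189922363. Smyd2 shares 814 exonic bases with the antisense gene Gm37422 (54 and 55 counts), and reads there cannot be assigned without strand.

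**Figure D1:**
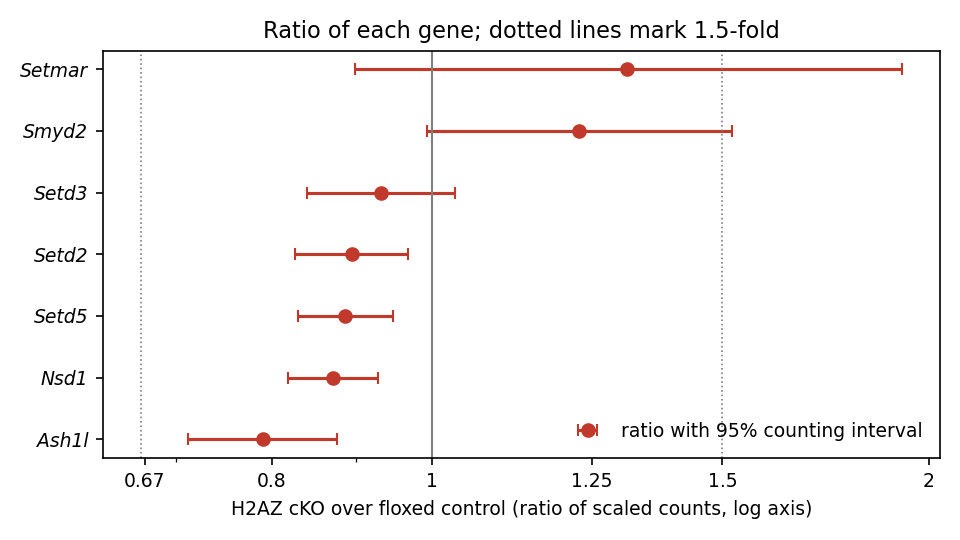
Ratio of scaled counts, H2AZ cKO over floxed control, for each of the 7 genes on a log axis, with bars for the exact 95% counting interval and dotted lines at 1.5-fold. The intervals of Ash1l, Nsd1, Setd5 and Setd2 lie below 1, and those of Setd3, Smyd2 and Setmar hold 1.

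None of the 7 genes reached 1.5-fold in either direction, a size that 3.03% of tested genes reached downwards and 1.92% upwards. None reached 2-fold, which 0.48% and 0.151% did. These shares take in genes down to 1 CPM. With a floor of 5 CPM, 161 of 11590 genes reached 1.5-fold downwards and 90 upwards. At a smaller size of 20% lower or 25% higher, 1 member was lower (Ash1l) and 1 higher (Setmar), against 9.79% and 7.94% of tested genes. Setmar missed that size under each of 3 other scalings (log2 ratio 0.31 by total count), and Ash1l missed it with the length trend described below removed (-0.20). In 4 members (Setd2, Nsd1, Ash1l and Setd5) the counting interval lay below 1 and in none above, while 11.2% of all tested genes had an interval below 1 and 12.6% one above. Such intervals narrow with depth, and among 5139 genes at a mean of 50 CPM or more, which include those 4 genes and Setd3, 15.1% lay below and 23.3% above. The median log2 ratio of the 7 was -0.16, with 5 below 0, against 0.01 over all tested genes, of which 49.0% were below 0. Summed over the 7 genes the levels were 715 against 805 CPM, a ratio of 0.888 (0.858 to 0.919), to which Nsd1 and Setd5 bring the most counts. In the authors' deposited table the same 4 genes had an adjusted p under 0.05 with a fold below 1, as had 5.97% of its genes. None of the 7 had one with a fold above 1, as had 3.57%. Which test gave these p-values is not known here, nor whether it used more than the 1 column per genotype. They are therefore not read here as a test of the genotypes. The authors' deposited table marks none of the 7 as significant, a mark held by 0.896% of its genes, since it also asks for a 2-fold size.

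Compared directly, which needs no scaling of the libraries, Setd2 could not be separated from most other members. The count ratio of each gene was divided by that of Setd2, with the exact conditional interval. It was 0.974 (0.880 to 1.08) for Nsd1, 0.991 (0.894 to 1.10) for Setd5, 1.04 (0.915 to 1.19) for Setd3 and 0.884 (0.775 to 1.01) for Ash1l. Smyd2 stood apart from Setd2, at 1.37 (1.09 to 1.73), and Setmar was at 1.47 (0.996 to 2.17). Of all 21 pairs, 9 had an interval that excluded 1, without adjustment for their number or for the length trend described below. These pairs set Smyd2 against Setd2, Nsd1, Ash1l, Setd3 and Setd5, Setmar against Nsd1, Ash1l and Setd5, and Setd3 against Ash1l. Pairs that share a gene are not independent. The share of such pairs among all tested genes was not computed, so the count of 9 is not read as particular to the members.

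Levels were compared between genes per kilobase (kb) of sequence. Over all annotated exons, Setd3 was highest in the floxed control at 14.5 RPKM (CPM per kb), followed by Setd2 at 13.8 and Nsd1 at 13.7, and neighbours in this order had overlapping Poisson intervals. Setd5 came next at 11.6, then Smyd2 at 6.73 and Ash1l at 6.26, which overlapped each other, and Setmar last at 3.27. The knockout library had the same order, from 13.5 for Setd3 and 12.4 for Setd2 to 4.95 for Ash1l and 4.29 for Setmar, where Ash1l and Setmar overlapped while Smyd2 (8.28) and Ash1l no longer did. The order rests on the length used. Per kb of coding sequence, Setd3 and Setd5 led in the control at 49.0 and 48.6, Nsd1 was at 29.6, and Setd2 was at 19.6, ahead of Smyd2 at 14.1, Ash1l at 10.5 and Setmar at 6.22. For Setd5 all annotated exons sum to 18.3 kb, while the transcript with the longest coding sequence is 6.53 kb and that coding sequence 4.38 kb.

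**Figure D2:**
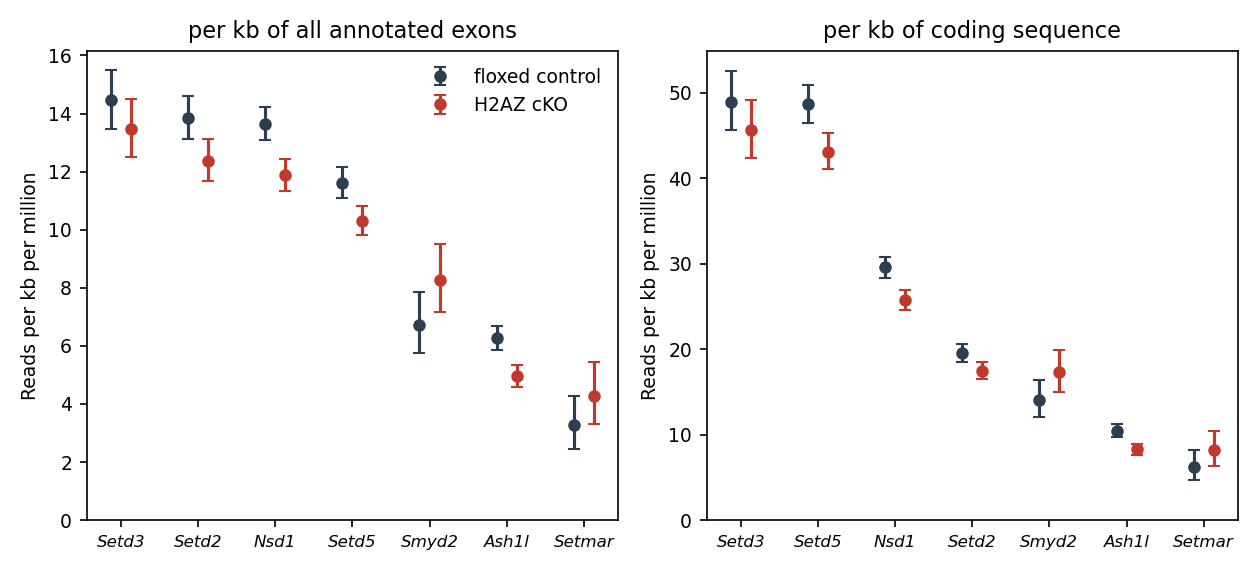
RPKM in the floxed control (dark) and the H2AZ cKO (red) per length of all annotated exons (left) and of coding sequence (right), with exact Poisson intervals of the counts. Setd2 ranks 2 on the left (13.8 in the control) and 4 on the right (19.6).

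The members differed in length, and their ratios followed it. The 4 genes with an interval below 1 have the longest transcripts of the set, at 12.8 kb for Nsd1, 11.6 kb for Ash1l, 8.35 kb for Setd2 and 6.53 kb for Setd5. Setd3 (2.76 kb) lay between them and the shortest, Smyd2 (1.68 kb) and Setmar (1.61 kb), whose ratios were above 1. Spearman's rho of the log2 ratio across the 7 genes was -0.96 with coding length, -0.96 with genomic span and -0.93 with transcript length. Transcript length is used below, although the members do not single it out. These values describe genes measured in the same pair of libraries. All tested genes showed a trend of the same direction (rho of -0.26 over 14549 genes): in 5 classes of equal size by transcript length, the median log2 ratio was 0.10 in the shortest class and -0.09 in the longest (from 4.89 kb), where 69.1% of genes were below 0. All 4 long members lie in that longest class. Among its 1308 genes at a mean of 50 CPM or more, 37.1% had an interval below 1 and 6.19% one above. Within the longest class 34.0% of genes had a lower log2 ratio than Setd2, 31.4% a lower one than Setd5, 27.5% a lower one than Nsd1 and 10.8% a lower one than Ash1l. Smyd2 and Setmar were above 89.0% and 86.2% of the genes of their own classes.

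**Figure D3:**
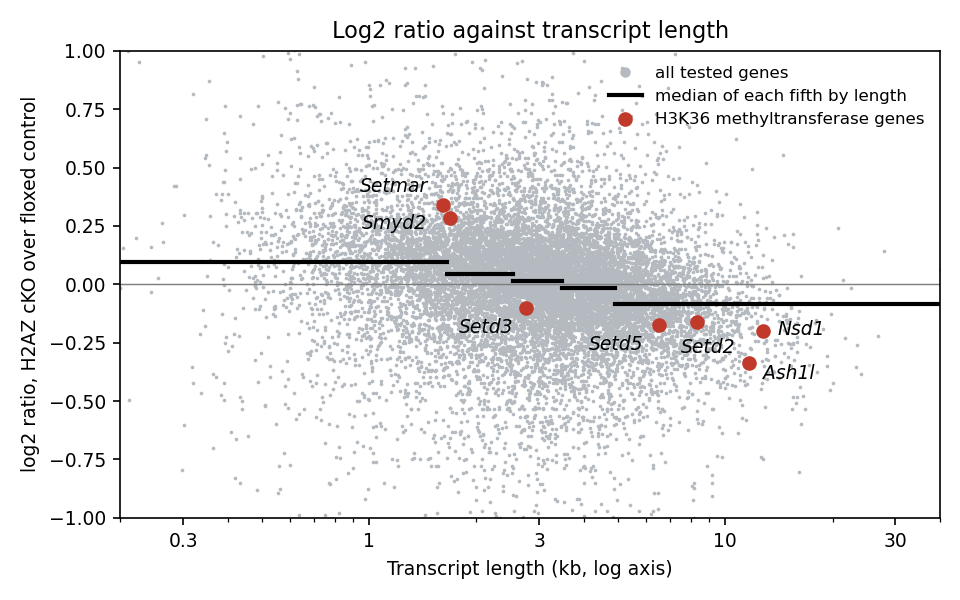
Log2 ratio (H2AZ cKO over floxed control) against transcript length in kb on a log axis for tested genes (grey), the 7 H3K36 methyltransferase genes (red) and the median of each of 5 length classes (black bars). The axes leave out 147 of 14549 genes. The medians step from 0.10 to -0.09 from short to long, and Setd2, Nsd1, Ash1l and Setd5 lie below the bar of the longest class.

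Removal of a joint trend of the log2 ratio on transcript length, GC content and level brought Setd2 from -0.16 to -0.08 and Nsd1 from -0.20 to -0.07. With their counting intervals shifted by the same trend, Setd2 (-0.20 to 0.03) and Nsd1 (-0.16 to 0.02) then held 0. Ash1l went from -0.34 to -0.20 (-0.35 to -0.05) and Setd5 from -0.17 to -0.13 (-0.22 to -0.03). Thus 2 of the 4 intervals stayed below 0. The share of all tested genes with such an interval after the removal was not computed, so that count has no background beside it. The shifted intervals carry no error of the fitted trend. Setd3 was at -0.12, Smyd2 at 0.25 and Setmar at 0.33, and all 3 intervals held 0 as before. Signs were kept in all 7 genes. The 3 covariates were fitted together, and the share of each was not tested.

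Other genes around H3K36 methylation were read from 4 lists, headed methyltransferases, demethylases, readers and elongation. The role of each listed gene was not checked, and not every gene fits its heading. Of the 51 tested genes in these lists none reached 1.5-fold, against 3.03% of all tested genes downwards and 1.92% upwards. Those shares take in genes down to 1 CPM. With a floor of 5 CPM, 161 of 11590 genes reached that size downwards and 90 upwards. At least 20% lower were 2 (Dnmt3a and Sp140), or 3.92%, against 9.79% of all tested genes. At least 25% higher was 1 (Phf19), or 1.96%, against 7.94%. Sp140 was named after its values were seen and rests on 16 and 23 counts. Of the remaining H3K36 methyltransferase genes, Nsd2 had 2660 against 2917 counts, a ratio of 0.943 (0.895 to 0.995). Nsd3 had 797 against 954, a ratio of 0.864 (0.786 to 0.951). All 3 NSD family genes were therefore below the control, and all 3 have long transcripts. Prdm9, the methyltransferase of meiotic recombination sites, was at 45 and 46 counts, a ratio of 1.01 (0.656 to 1.56).

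Genes listed as demethylases of H3K36, without a check of each activity, had a median log2 ratio of -0.07, with 5 of 8 tested genes below 0. Kdm2a, which binds CpG islands, stood at 0.843 (0.775 to 0.918), Kdm4c at 0.821 (0.693 to 0.972), Riox2 at 0.844 (0.594 to 1.20) and Riox1 at 1.18 (0.942 to 1.48). The 22 genes listed as readers, also without a check of each, had a median of -0.05, with 12 below 0. Dnmt3a, the DNA methyltransferase that reads H3K36 methylation through its PWWP domain, had 1205 against 1566 counts (138 and 174 CPM) and a ratio of 0.796 (0.738 to 0.859). Its paralog Dnmt3b stood at 1.20 (0.844 to 1.71), the Polycomb-associated reader Phf19 at 1.35 (0.991 to 1.85) and Zcwpw1 at 0.815 (0.598 to 1.11). The list of elongation genes around Setd2 had a median of -0.02 over 18 genes, 11 of them below 0. Not all of the 18 encode elongation factors. Ccnt1 and Cdk12 were at 0.824 (0.726 to 0.935) and 0.855 (0.755 to 0.969), while Leo1 of the PAF complex was at 1.20 (1.06 to 1.36) and the kinase gene Cdk9 at 1.15 (1.05 to 1.26).

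A further 4 lists held genes listed as methyltransferases of other histone residues and other genes named for SET or SMYD. The activity of each product was not assessed here. Of the 26 tested genes in these lists none reached 1.5-fold, against 3.03% of all tested genes downwards and 1.92% upwards. Those shares again take in genes down to 1 CPM. At least 20% lower were 2 (Kmt2a and Smyd5), or 7.69%, against 9.79% of all tested genes. None was 25% higher, against 7.94%. The 9 tested H3K4 genes had a median of -0.12, with 8 below 0, and they hold some of the longest transcripts, with a median of 8.47 kb. Kmt2a (Mll1) was at 1319 against 1902 counts, a ratio of 0.717 (0.668 to 0.770), Kmt2c at 0.803 (0.734 to 0.879), Kmt2e at 0.857 (0.803 to 0.914) and Kmt2d at 0.916 (0.859 to 0.977). With the trend removed the median of that list was -0.03, and Kmt2a kept a log2 ratio of -0.30 from -0.48. The 6 H3K9 genes had a median of 0.02, which was below 0 under each of 3 other scalings (-0.02 by total count), with Setdb1 at 0.863 (0.793 to 0.939), Suv39h2 at 1.16 (0.979 to 1.37), Suv39h1 at 1.08 (0.970 to 1.21) and Setdb2 at 1.03 (0.744 to 1.44). The genes for H3K27, H3K79 and H4K20 had a median of -0.11, with 5 of 6 below 0: Ezh1 was at 0.859 (0.691 to 1.07), Kmt5b at 0.876 (0.794 to 0.968), Kmt5c at 0.916 (0.845 to 0.994) and Ezh2 at 1.08 (1.02 to 1.15). In the list of remaining genes named for SET or SMYD the median was -0.15, with 4 of 5 below 0. That list holds Setbp1, which encodes a protein that binds SET and is no SET domain methyltransferase, and without it the median of the other 4 was -0.08, an alternative chosen after seeing the data. Smyd5 was lowest, at 337 against 495 counts, a ratio of 0.704 (0.611 to 0.811), and with a transcript of 2.49 kb its log2 ratio was -0.49 as measured and -0.51 with the trend removed. Setbp1 stood at 0.808 (0.750 to 0.872), Setd4 at 0.896 (0.676 to 1.19), Smyd4 at 0.991 (0.737 to 1.33) and Setd6 at 1.24 (1.0 to 1.54).

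**Figure D4:**
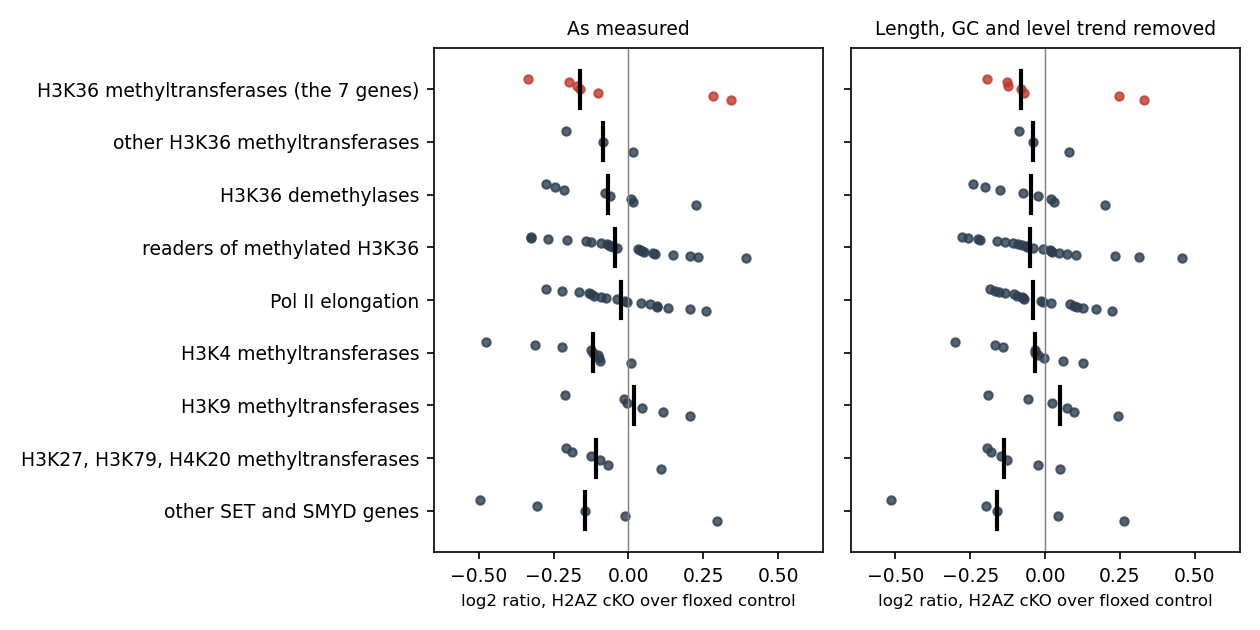
Log2 ratio (H2AZ cKO over floxed control) of each tested gene in the 7 H3K36 methyltransferase genes (red) and the 8 fixed lists (dark), with a black bar at each median, as measured (left) and after removal of the trend (right). The median of the 7 genes is -0.16 on the left and -0.08 on the right.

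Among the 76 listed genes outside the 7 members at a mean of 5 CPM or more, the nearest to Setd2 in log2 ratio, over these 2 libraries, were Polr2a, Setd4 and Brpf3. Polr2a, the gene of the largest RNA polymerase II subunit, to which the Setd2 protein binds, was at a log2 ratio of -0.16 (ratio 0.892, 0.852 to 0.935). Setd4 and Brpf3 were at -0.15 and -0.14. Among the members themselves Setd5 was nearest, at -0.17, closer to Setd2 than Setd4 or Brpf3. With 1 library per genotype this likeness rests on 1 difference per gene.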

How the data were processed

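Trizol RNA and an Illumina TruSeq RNA kit were used, per the labels' protocols. The submitters' processing notes name Bowtie2 2.2.3, TopHat2 2.0.12, HTSeq 0.6.0 and the build mm9, without roles. The deposited positions instead overlap GENCODE M21 (GRCm38) models for 99.95% of 19119 genes. How strand was set and whether replicates were pooled was not given in the sources used here, nor which test made the p-values. The authors deposited whole read counts per gene, and CPM computed by the authors from totals of 8842436 and 8894180. The deposited fold is the ratio of those CPM values, the deposited log2 is its log2, and each deposited p-value stands with its adjusted p-value. The deposited significance column equals an adjusted p under 0.05 with a fold of at least 2-fold. The WT column was assigned to the H2AZfl/fl sample, as the series has no further genotype.

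Symbols were matched for 19112 of 19202 identifiers. Counts were scaled with TMM factors of 0.986 and 1.01 (edgeR 4.0.16, R 4.3.3), and DESeq2 1.42.0 gave size factors for an alternative. Log2 ratios used a pseudocount of 1 CPM and genes at 1 CPM or more in the higher library, and 3 counts correspond to 0.344 and 0.333 CPM. Intervals were computed in Python 3.11.15 with scipy 1.17.1, numpy 2.4.6 and pandas 2.3.3, and figures with matplotlib 3.10.9. The intervals cover counting error only, since each genotype has 1 count column. No molecular identifiers mark independent molecules, so the counting error itself may be larger than the intervals show. Transcript length and GC content are those of the GENCODE transcript with the longest coding sequence, or the longest transcript, and the trend was a least-squares fit with linear and squared terms. On data simulated at these depths (14578 genes tested, changed genes at 5 CPM or more), 98.5% of genes changed 2-fold passed 1.5-fold, 2.25% of unchanged genes passed it and 95.7% of intervals held the true ratio. Apart from the planted changes, both simulated libraries were Poisson draws from the same levels. They held no variation between embryos and no length trend, so these shares cover counting error only and give no error rate for the real libraries.

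The members and the gene lists were chosen with earlier results of these data known. Named genes are the 7 members, H2afz and H2afv, all genes of lists of up to 5 and otherwise the 4 with the largest absolute log2 ratio at a mean of 5 CPM or more, and the 3 nearest to Setd2. Named outside that rule, after their values were seen, are Sp140, Nkx2-4 (at 0 in 1 library), Xist, and Dap3 and Gm37422, which overlap members. Upstream sequences are from RefSeq (GRCm38.p6). Alternatives were other scalings, pseudocounts of 0.1 and 5 CPM, other floors and fold sizes, the trend removal and other lengths. Protein sequences were not used here.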

Additional observations from a re-analysis of the deposited data

How the results depend on the processing

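Setd2 stayed between -0.20 and -0.08 on the log2 scale in all 6 alternatives, and the median of the 7 genes in the same range in 8. The other scalings moved the median of all genes by -0.02 to -0.04. The sign held in every alternative for each of the 7 genes. Nsd1 left its counting interval when the trend on length, GC and level was taken out (-0.07). Without a replicate, the stability says nothing of differences between embryos. No member passed 1.5-fold in any setting run at that size, nor 2-fold. At 20% lower or 25% higher 1 was lower (Ash1l) and 1 higher (Setmar), and both calls end elsewhere. Setmar missed that size by total count (0.31), deposited CPM (0.31), DESeq2 size factors (0.32) and a pseudocount of 5 CPM (0.22), and Ash1l with that pseudocount (-0.32) and with the trend taken out (-0.20). The counts of all genes past 1.5-fold (442 lower and 280 higher) became 816 and 590 with a pseudocount of 0.1 CPM, 59 and 29 with 5 CPM, 161 and 90 with a floor of 5 CPM, 1428 and 1158 at the 20% and 25% size and 70 and 22 at 2-fold, which ask for other sizes. By construction, a larger pseudocount draws each log2 ratio towards 0, and a higher floor only leaves genes out. Either can therefore only lower the counts past 1.5-fold, and a smaller pseudocount can only raise them. By level per length in the control, Setd2 ranked 2 by all exons and 4 by coding length or by transcript, Setd5 4, 2 and 1, and Setd3 1, 1 and 2. No paired analysis was possible because each genotype has 1 count column. Leaving out a replicate was not possible for the same reason.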

Other observations

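The Gene Ontology terms in the deposited table describe these genes unevenly. Terms for H3K36 methylation or H3K36 methyltransferase activity are attached to 7 genes of the table, of which 5 are members (Setd2, Nsd1, Setd3, Smyd2 and Setmar). Ash1l carries H3K4 terms in their place, and Setd5 carries no Gene Ontology term there. The other two are Nsd2 and Gm37422, both chosen for mention because the count is small. Gm37422 is annotated in GENCODE as antisense to Smyd2, with which it shares 814 exonic bases, and it had 54 and 55 counts, a ratio of 1.02 (0.685 to 1.51), against 1.23 for Smyd2.

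Dap3, whose exons overlap those of Ash1l on the opposite strand over 352 bases, had 800 against 734 counts, so its counts lay in the other direction from those of Ash1l (640 and 838).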
